A study of Mus musculus with 6 samples.

Results

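The 10 genes described here encode the core machinery that makes and uses microRNAs: the nuclear processing enzyme Drosha and its partner Dgcr8, the exporter Xpo5, the cytoplasmic processing enzyme Dicer1, the Argonautes Ago1, Ago2, Ago3 and Ago4, and the silencing scaffolds Tnrc6a and Tnrc6b. They were chosen by gene symbol, 10 of the 55376 genes in the deposited tables. The rule uses names and no measured value, but earlier results of these data were known when the genes were chosen. All 10 were found, had at least 16 counts in every library and entered every test.

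RNA immunoprecipitation followed by sequencing (RIP-seq) recovers transcripts that come down with a protein. Freshly isolated satellite cells (fiSCs), the muscle stem cells, came from male C57BL/6 mice aged 3 months and were sorted as negative for CD31, CD45 and Sca1 and positive for Vcam1. The 6 libraries comprised 2 from an anti-CPEB1 precipitation (CPEB1 IP), 2 from an anti-IgG control precipitation (IgG) and 2 from input RNA of the same kind of cells without an antibody. Beyond the antibody, no genotype or treatment sets the groups apart, and each holds 2 biological replicates. The IgG values were deposited apart from those of CPEB1 IP and input. When each library was prepared is not given in the sources used here, so a difference in preparation cannot be told apart from the antibody. Whether cells of several mice were pooled is not given in the sources used here.

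MicroRNAs are cut in the nucleus from long transcripts by the microprocessor, in which Drosha cleaves and Dgcr8 binds the hairpin. Xpo5 carries the precursor to the cytoplasm, Dicer1 trims it, and an Argonaute protein loaded with the mature microRNA finds its targets, where TNRC6 proteins recruit deadenylases. CPEB1 acts on the poly(A) tail as well: it binds cytoplasmic polyadenylation elements (CPEs) in 3′ UTRs and can promote or restrain tail lengthening. In satellite cells, the microRNA pathway is known for its part in keeping the cells quiescent.

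Counts on genes ranged from 1284716 in an IgG library to 4941653 in a CPEB1 IP library. They made up between 39.1% and 39.5% of the library total behind the deposited FPKM (reads scaled by gene length and library total) in IgG, but between 69.5% and 79.8% in the other 4 libraries. Genes with a count numbered 32381 and 32328 in IgG, 25280 and 29465 in CPEB1 IP, and 21150 and 20158 in input. Satellite cell markers summed to between 8050 and 10900 CPM (counts scaled to a library of fixed size) with none of the 9 at 0. Immune markers summed to 8.75 and 17.1 CPM in CPEB1 IP, 50.9 and 35.7 in IgG, with 22.1 and 11.3 in input. Of the 4 immune markers, Ptprc and Itgam were at 0 in CPEB1 IP replicate 1, and Ptprc, Itgam and Cd3e in Input replicate 1. Endothelial markers summed to between 103 and 150 CPM. Pericyte and smooth muscle markers were higher in input, at 726 and 861 CPM, than in the precipitates, at 280 to 398. Fibroadipogenic, Schwann cell and muscle fibre markers were lower in input, at 298 and 243, 74.6 and 76.2, and 68.7 and 57.9 CPM, than in any precipitate, at 354 to 506, 95.4 to 153, and 101 to 148. No marker outside the immune list was at 0 in any library, and the part of these markers in the results was not tested. Fewer cells of a type, less RNA per cell and, between precipitates and input, unequal recovery of transcripts cannot be told apart in such bulk samples.

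The 3′ UTRs of these genes are shown first because CPEs are the element that CPEB1 recognises. CPEs were searched on the sense strand as TTTTAT and TTTTAAT (a motif may share bases with its neighbour) in the GENCODE M21 annotation of mm10. Of the 10 genes, 7 had a CPE in their longest 3′ UTR, and 8 in any annotated 3′ UTR. Among the 21051 genes with an annotated 3′ UTR, these shares were 56.8% and 58.8%. The genes with long UTRs held the most: Ago3 had 21 CPEs in 12742 bases, Ago2 17 in 11064, Tnrc6b 17 in 11609, Ago1 6 in 4491, Ago4 6 in 3682, Dicer1 5 in 3851 and Dgcr8 3 in 1574. Length matters for this count, since the median longest 3′ UTR was 1086 bases and 80.3% of the 11067 genes with at least 1000 bases had a CPE. Per kilobase these 7 genes, listed because they hold a CPE, had between 1.3 and 1.91 CPEs. The value of 1.25 over all longest 3′ UTRs pooled includes those with none, so it is not a like comparison and shows no excess. Drosha, with a 3′ UTR of 169 bases, and Xpo5, with 1327 bases, had none. Tnrc6a had none in its longest 3′ UTR of 3397 bases and 3 in another of 2345 bases. A match is a stretch of letters and not a measured binding site.

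The windows below show the CPE nearest to the annotated 3′ end in Ago1, Ago2, Ago3, Ago4, Dicer1 and Dgcr8, and for Tnrc6a a pair of adjoining CPEs in its 3′ UTR of 2345 bases. Each is 30 bases of mm10, written 5′ to 3′ on the strand of the gene, with the CPEs in capitals.
Ago1, chr4:126435012-126435041, minus strand: ataaaaacaacagtggcTTTTATttctaaa
Ago2, chr15:73095926-73095955, minus strand: atgatgtggataTTTTATaaagttattttg
Ago3, chr4:126332732-126332761, minus strand: gcagaaagctaataaagtTTTTAATcaaaa
Ago4, chr4:126489756-126489785, minus strand: ttttaaaatgtaTTTTATtactttggactg
Dicer1, chr12:104687761-104687790, minus strand: tttctttttctTTTTAATaattgtagtcaa
Dgcr8, chr16:18254734-18254763, minus strand: aatttttaaagcTTTTATgatgttttaaaa
Tnrc6a, chr7:123193252-123193281, plus strand: cccatccccaccTTTTATTTTTATttgtat

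Of the genes with a window from their longest 3′ UTR, the last CPE began 12 bases from the annotated 3′ end in Ago3, 13 in Ago1, 38 in Dicer1, 100 in Ago2, 233 in Ago4 and 804 in Dgcr8. In Ago3 the polyadenylation signal aataaa stands just upstream of the CPE within the printed window.

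**Figure D1:**
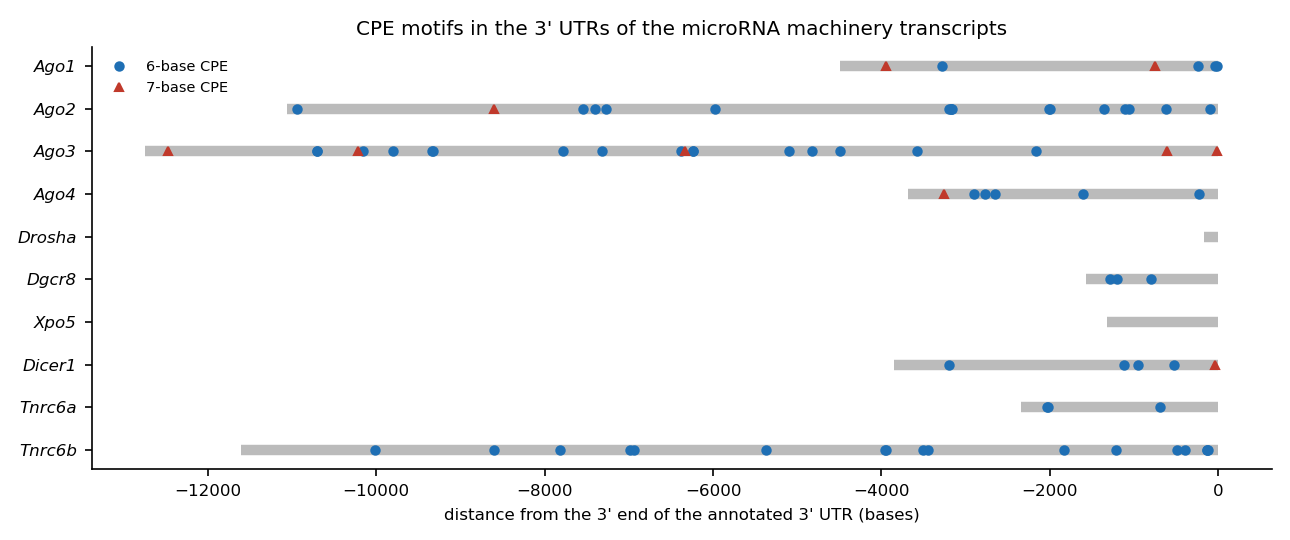
Positions of CPEs in the 3′ UTRs of the 10 genes. The x axis is the distance in bases from the annotated 3′ end, grey bars are the 3′ UTRs (the longest, or for Tnrc6a the 3′ UTR of 2345 bases), circles mark the 6-base CPE and triangles the 7-base CPE. Ago2, Ago3 and Tnrc6b carry the most CPEs on the longest bars, and the bars of Drosha and Xpo5 are empty.

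Abundance in fiSCs before precipitation is given as deposited FPKM, which is divided by gene length and so allows genes to be compared. Ago2, the Argonaute that can itself cleave a perfectly matched target, was the most abundant at 15.5 and 19.2 FPKM, a mean of 17.3 ± 2.58 (SD, n = 2), and stood at the 90.0 percentile of genes with a count. Xpo5 at 5.72 ± 0.509 and Drosha at 5.54 ± 1.06 followed and did not separate from each other. The next genes ran from Tnrc6a at 2.66 ± 0.282 over Ago3 at 2.57 ± 0.255, Tnrc6b at 2.39 ± 0.344 and Dicer1 at 2.19 ± 0.236 to Dgcr8 at 2.07 ± 0.143, each overlapping its neighbour. Ago1 at 1.43 ± 0.999 and Ago4 at 0.646 ± 0.117 were the lowest and overlapped as well. Ago2 alone supplied 80.9% and 77.4% of the summed Argonaute FPKM in input, and Ago4 2.93% and 2.94%. Argonaute genes are similar in sequence, and how the authors treated reads that fit several genes is not given in the sources used here, so the split between them is uncertain.

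Each gene was then compared between groups with the quasi-likelihood test of edgeR. Its p-values were adjusted over all genes tested after Benjamini and Hochberg, with a threshold of 0.05. Values of single libraries are CPM scaled by TMM, a normalization that assumes most genes do not differ, in the order replicate 1 and replicate 2. The p-values weigh a difference against the spread among libraries, which edgeR estimates for each gene with help from all genes. The 3 comparisons share libraries in pairs and are not independent of each other. Whether the libraries of groups overlap is given as a description. The share of all genes whose libraries do not overlap was not counted, so a gap without an adjusted p under the threshold is no result.

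Drosha, the ribonuclease that opens the pathway, was lower in both precipitates than in input. It had 40.2 and 48.8 CPM in input, 15.4 and 28.7 in CPEB1 IP, and 16.0 and 25.5 in IgG. Both input libraries lay above all 4 precipitate libraries, while CPEB1 IP and IgG covered the same range. Against input, Drosha was 1.85-fold lower in CPEB1 IP, with a log2 fold change of -0.89 ± 0.26 (SE) and an adjusted p of 0.0177. In IgG the log2 fold change against input was -1.10 ± 0.29 with an adjusted p of 0.00259. Between CPEB1 IP and IgG it was 0.09 ± 0.33 with an adjusted p of 0.869. The direction against input held under every alternative tried, but the call for CPEB1 IP did not hold without its replicate 1 (log2 fold change -0.57, adjusted p = 0.198), and the call for IgG without IgG replicate 1 (-0.82, adjusted p = 0.0868) and by DESeq2 (adjusted p = 0.0576). Pericyte and smooth muscle markers moved the same way, at 726 and 861 CPM in input against 280 to 398 in the precipitates. Fibroadipogenic, Schwann cell and muscle fibre markers moved the other way. The part of these markers in the difference was not tested.

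Dgcr8, which holds the hairpin for Drosha, was higher in CPEB1 IP than in input. It had 23.6 and 19.8 CPM in input, 30 and 36.5 in CPEB1 IP and 28.1 and 29.9 in IgG. The input libraries were the lowest, the CPEB1 IP libraries lay just above the IgG libraries, and CPEB1 IP exceeded input by 0.68 ± 0.23 on the log2 scale with an adjusted p of 0.0344 in edgeR. This call was lost by DESeq2 (adjusted p = 0.187), with total counts or the FPKM library total as library size (0.052 and 0.129), without the filter on low counts (0.071), and without CPEB1 IP replicate 1 (0.0582), CPEB1 IP replicate 2 (0.391) or Input replicate 2 (0.0581). The log2 fold change was 0.15 between CPEB1 IP and IgG (adjusted p = 0.66) and 0.41 between IgG and input (adjusted p = 0.301). Exons of Trmt2a on the opposite strand cover 825 bases, or 10.7%, of the Dgcr8 exons, and reads there cannot be assigned to either gene without strand. Fibroadipogenic markers were also higher in CPEB1 IP, at 499 and 506 CPM, than in input, at 298 and 243. Endothelial, Schwann cell and muscle fibre markers were higher there too, while pericyte and smooth muscle markers were lower. The part of these markers in the difference was not tested.

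The Dgcr8 transcript itself contains a microRNA hairpin, the 79 bases of Mir1306, which lie wholly in an exon. The mature sequences, from RefSeq on GRCm38.p6, are shown with their seed (bases 2 to 8) in capitals because they are the product that cutting this transcript would release.
miR-1306-5p, chr16:18284288-18284310, minus strand: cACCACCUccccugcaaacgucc
miR-1306-3p, chr16:18284248-18284268, minus strand: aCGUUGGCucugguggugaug
Mir1306 had 0 counts in all 6 libraries, as did Mir5113 in an exon of Tnrc6b. Both hairpins lie wholly in exons of their host gene, and how reads that fall on several genes were counted is not given in the sources used here. Libraries made from long RNA also do not capture mature microRNAs well, so these zeros describe the tables only.

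The ratio of Drosha to Dgcr8 within a library does not depend on library scaling. It was 2.21 and 3.19 in input, 0.666 and 1.02 in CPEB1 IP, and 0.736 and 1.11 in IgG, as a ratio of FPKM. Input stood apart from both precipitates, and the precipitates overlapped. With 2 libraries against 2, an exact permutation test cannot give a two-sided p under 0.333, and none was run.

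**Figure D2:**
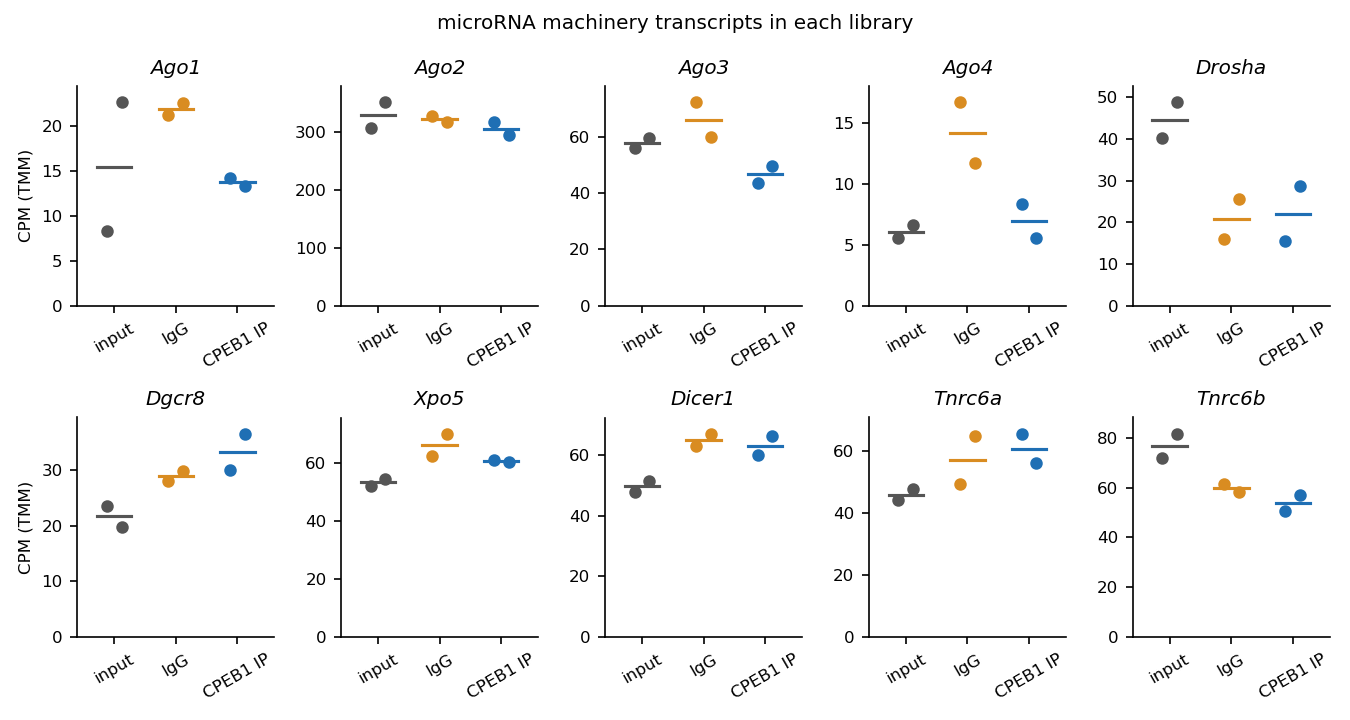
CPM (TMM) of each gene in each library, by group. Points are single libraries, horizontal bars are the means of 2 libraries, and each y axis starts at 0. Drosha is higher in both input libraries than in any precipitate, Ago3 and Ago4 are lower in CPEB1 IP than in IgG on this scale (Ago3 turned to 0.26 with the FPKM library total), and the input libraries of Ago1 lie far apart.

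Xpo5, the export receptor for precursors, and Dicer1, the enzyme that trims them, had no adjusted p under the threshold in any comparison. Xpo5 had 51.9 and 54.5 CPM in input, 60.8 and 60.3 in CPEB1 IP and 62.3 and 69.9 in IgG. Dicer1 had 47.9 and 51.6 CPM in input, 60.0 and 66.1 in CPEB1 IP and 63.0 and 67.0 in IgG. For both genes input was below every precipitate library, for Xpo5 CPEB1 IP was below IgG, and for Dicer1 the CPEB1 IP and IgG libraries overlapped. Dicer1 exceeded input in CPEB1 IP by 0.40 ± 0.16 on the log2 scale (adjusted p = 0.0788 in edgeR), and without Input replicate 2 the value was 0.44 with an adjusted p of 0.0377. Xpo5 differed by 0.24 (adjusted p = 0.276). Between CPEB1 IP and IgG the log2 fold changes were -0.19 for Xpo5 (adjusted p = 0.384) and -0.10 for Dicer1 (adjusted p = 0.672).

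The ratio of Dicer1 to Drosha FPKM, the cytoplasmic against the nuclear cutter, was 0.422 and 0.375 in input. It was 1.38 and 0.816 in CPEB1 IP and 1.40 and 0.931 in IgG. Both precipitates lay above input and overlapped each other. Drosha enters this ratio and the ratio to Dgcr8, so they are not independent of each other.

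Among the Argonautes, which bind the mature microRNA, Ago3 and Ago4 were lower in CPEB1 IP than in IgG with TMM, and with the FPKM library total the log2 fold change of Ago3 turned to 0.26 (adjusted p = 0.218 in edgeR). Ago3 had 43.7 and 49.5 CPM in CPEB1 IP, 72.2 and 59.7 in IgG, with 55.9 and 59.5 in input. CPEB1 IP was the lowest group without overlap, and both IgG libraries lay above input, replicate 2 by a small margin. The log2 fold change of CPEB1 IP against IgG was -0.55 ± 0.18 with an adjusted p of 0.0194 in edgeR. The threshold was missed without CPEB1 IP replicate 1 (0.221), CPEB1 IP replicate 2 (0.102) or IgG replicate 1 (0.202), by DESeq2 (0.429), without the filter on low counts (0.68) and with all 6 libraries in 1 fit (0.0642). Ago3 did not pass the threshold against input in CPEB1 IP (-0.24, adjusted p = 0.289) or in IgG (0.19, adjusted p = 0.504).

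Ago4 had 8.33 and 5.57 CPM in CPEB1 IP, 16.7 and 11.7 in IgG, with 5.52 and 6.61 in input. These rest on few reads, between 16 and 27 in each library. IgG lay above all other libraries, and CPEB1 IP and input overlapped. The IgG libraries also had a count for more genes than the others, and the part of this in Ago4 was not tested. By edgeR's quasi-likelihood test the log2 fold change was -1.14 ± 0.42 for CPEB1 IP against IgG (adjusted p = 0.0392) and 1.21 ± 0.46 for IgG against input (adjusted p = 0.0331). Neither call survived leaving out any 1 of its libraries, and neither was made by DESeq2 (adjusted p = 0.285 and 0.394) or without the filter on low counts (0.308 and 0.159). With the FPKM library total the values shrank to -0.34 (adjusted p = 0.474) and 0.34 (0.534), and with all 6 libraries in 1 fit the call for CPEB1 IP against IgG was lost (0.0665). CPEB1 IP differed from input by 0.20 (adjusted p = 0.747).

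Ago1 had 14.2 and 13.4 CPM in CPEB1 IP, 21.3 and 22.6 in IgG, with 8.29 and 22.7 in input. The CPEB1 IP libraries lay below the IgG libraries, by -0.74 ± 0.31 on the log2 scale with an adjusted p of 0.074, which missed the threshold. The input libraries differed by more than the other groups, with 27 and 72 reads. Differences from input changed with either of them. IgG differed from input by 0.51 (adjusted p = 0.308), by 1.37 without Input replicate 2 (adjusted p = 0.016) and by -0.03 without Input replicate 1 (adjusted p = 0.967). CPEB1 IP differed from input by -0.11 (adjusted p = 0.849), by 0.76 without Input replicate 2 (0.106) and by -0.69 without Input replicate 1 (0.0609).

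Ago2 had no adjusted p under the threshold in any comparison, with 318 and 295 CPM in CPEB1 IP, 328 and 317 in IgG, with 308 and 352 in input. The ranges of all 3 groups overlapped. By edgeR's quasi-likelihood test its log2 fold changes were -0.14 ± 0.10 between CPEB1 IP and IgG (adjusted p = 0.287), -0.05 between CPEB1 IP and input (0.78) and -0.03 between IgG and input (0.882). The Ago2 share of Argonaute FPKM was 80.2% and 79.4% in CPEB1 IP against 71.4% and 73.7% in IgG, and that of Ago4 4.24% and 3.03% against 7.34% and 5.47%. Exons of Chrac1 on the opposite strand cover 219 bases, or 1.56%, of the Ago2 exons.

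Ago1, Ago3 and Ago4 lie next to each other on chromosome 4, on the minus strand, with 5455 bases between Ago3 and Ago1 and 20957 between Ago1 and Ago4, while Ago2 lies on chromosome 15. The clustered genes had the lowest log2 fold changes of CPEB1 IP against IgG among the 10 genes, a grouping made after the values were seen and not tested.

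Tnrc6a and Tnrc6b, the scaffolds that link Argonaute to deadenylation, differed in sign against input. Tnrc6b had 71.8 and 81.6 CPM in input, 50.8 and 57.2 in CPEB1 IP and 61.5 and 58.3 in IgG. Input lay above every precipitate library. Against input CPEB1 IP differed by -0.44 ± 0.16 on the log2 scale with an adjusted p of 0.0493 in edgeR. This call was lost with a replicate block (-0.45, adjusted p = 0.0669), by DESeq2 (0.146), without the filter on low counts (0.094), and without CPEB1 IP replicate 1 (0.388), CPEB1 IP replicate 2 (0.164) or Input replicate 2 (0.0816). Tnrc6a had 44.2 and 47.5 CPM in input, 65.4 and 55.9 in CPEB1 IP and 49.4 and 64.8 in IgG. Input again lay apart, this time below every precipitate library. The difference of 0.44 ± 0.17 between CPEB1 IP and input missed the threshold (adjusted p = 0.062) and passed it without Input replicate 2 (0.0301).

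Within a library, the ratio of Tnrc6a to Tnrc6b FPKM was 1.15 and 1.09 in input. It was 2.40 and 1.82 in CPEB1 IP and 1.5 and 2.07 in IgG. Every precipitate library was above both input libraries, and the precipitates overlapped. Between CPEB1 IP and IgG the log2 fold change was 0.00 for Tnrc6a (adjusted p = 0.991) and -0.20 for Tnrc6b (adjusted p = 0.392). Tnrc6c, the other member of the family, differed by -0.23 (adjusted p = 0.374).

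**Figure D3:**
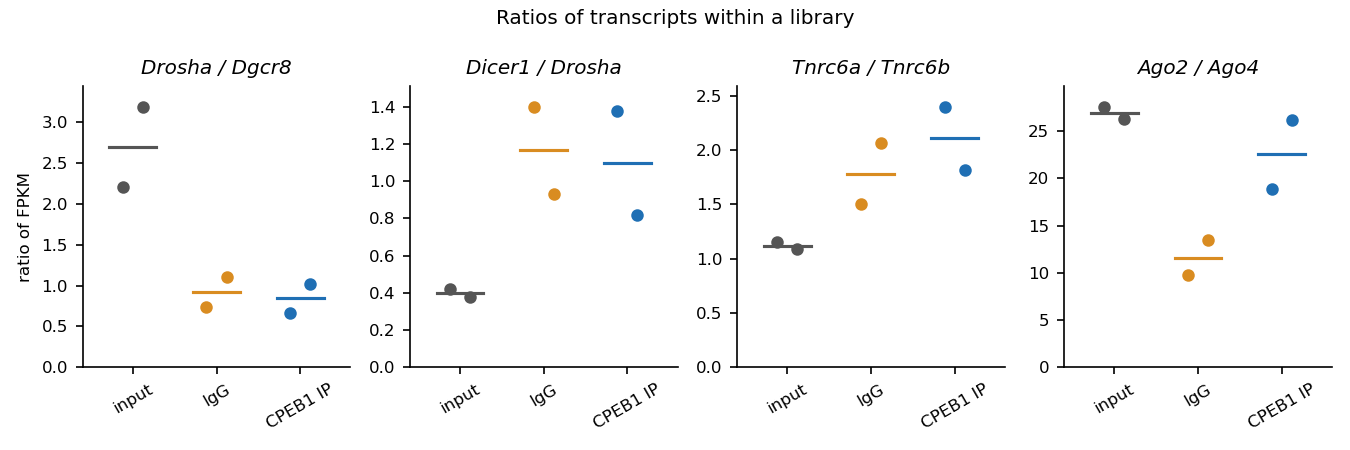
Ratios of the FPKM of paired genes within each library, by group, with means of 2 libraries as bars and y axes from 0. The first 3 ratios separate input from both precipitates, and the ratio of Ago2 to Ago4 is lowest in IgG at 9.72 and 13.5. Drosha enters both the ratio with Dgcr8 and that with Dicer1. The ratios of Ago2 to Ago1 and of Ago2 to Ago3, not shown, did not place input on the same side of both precipitates.

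Counted over the 10 genes, CPEB1 IP against IgG gave 0 higher and 2 lower, beside 14.7% of all 12124 genes tested called higher and 18.7% called lower. CPEB1 IP against input gave 1 higher and 2 lower, beside 17.0% and 15.8% of 12171 genes. IgG against input gave 1 higher and 1 lower, beside 21.4% and 19.4% of 12980 genes. These shares are close to the background and are no result about the machinery. For the 0 genes higher in CPEB1 IP than IgG in edgeR, DESeq2 also called 0, and 0 had an unadjusted p under 0.05 in that direction. The median log2 fold change of the 10 genes was -0.17 against IgG (all genes -0.01), 0.07 against input (all genes -0.00) and 0.31 for IgG against input (all genes 0.03).

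**Figure D4:**
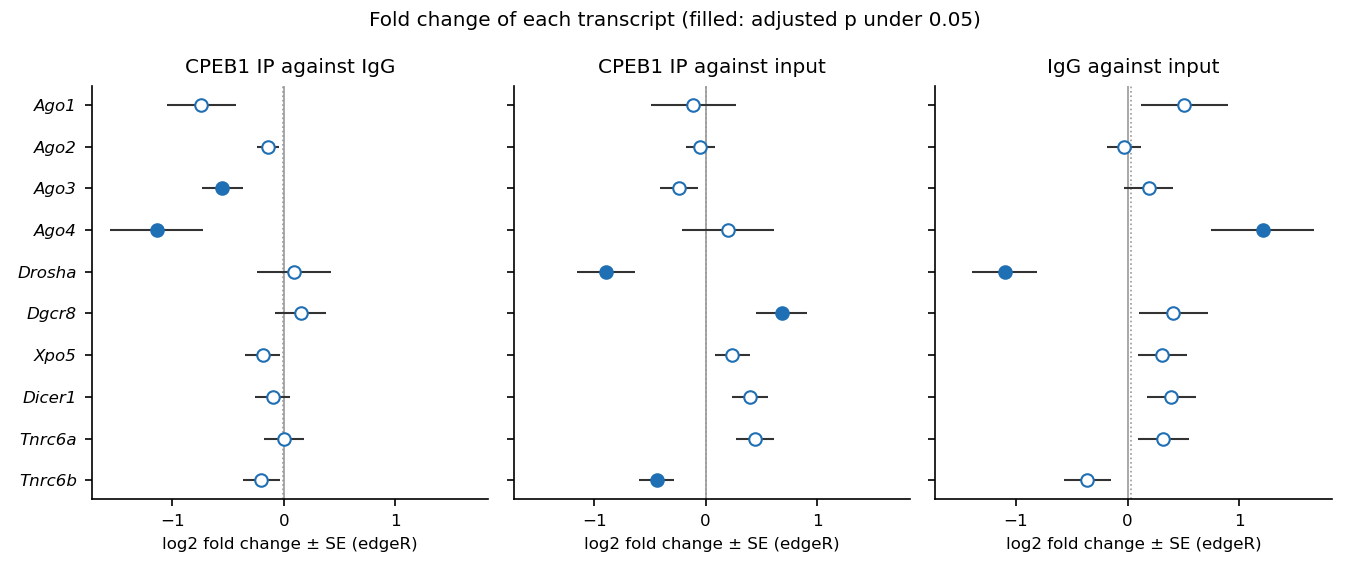
Log2 fold change with SE of each gene in the 3 comparisons, by edgeR. Filled points have an adjusted p under 0.05, the solid line is 0 and the dotted line the median of all genes tested. Ago3 and Ago4 are filled for CPEB1 IP against IgG, Drosha, Dgcr8 and Tnrc6b for CPEB1 IP against input, and Drosha and Ago4 for IgG against input.

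The comparison with IgG depended on how a library's size is measured. With the library total behind the deposited FPKM in place of TMM, the median log2 fold change of all genes in CPEB1 IP against IgG moved to 0.80, and the share of called genes that were higher went from 44.0% to 88.4%. On that scale 7 of the 10 genes were higher (Ago2, Drosha, Dgcr8, Xpo5, Dicer1, Tnrc6a and Tnrc6b) and 0 lower, beside 59.0% of all genes higher and 7.73% lower. Ago2 then had a log2 fold change of 0.66, Ago3 0.26 and Ago4 -0.34, and the median of the 10 genes, 0.64, was again below that of all genes. For CPEB1 IP against input the median of all genes moved to -0.19 and the higher share of calls from 51.9% to 31.0%, with Drosha at -1.09 (adjusted p = 0.0032 in edgeR) and Tnrc6b at -0.64 (adjusted p = 0.0151) the 2 genes called, both lower, beside 10.1% of all genes higher and 22.5% lower. For IgG against input the median of all genes moved to -0.85 and that of the 10 genes to -0.57, with 0 genes higher and 6 lower, beside 8.54% and 55.3% of all genes, and the higher share of calls went from 52.4% to 13.4%. DESeq2 on all genes with a count gave a higher share of 72.5% for CPEB1 IP against IgG and 41.6% for IgG against input, and the edgeR test without the filter on low counts gave 60.1% for CPEB1 IP against IgG.

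**Figure D5:**
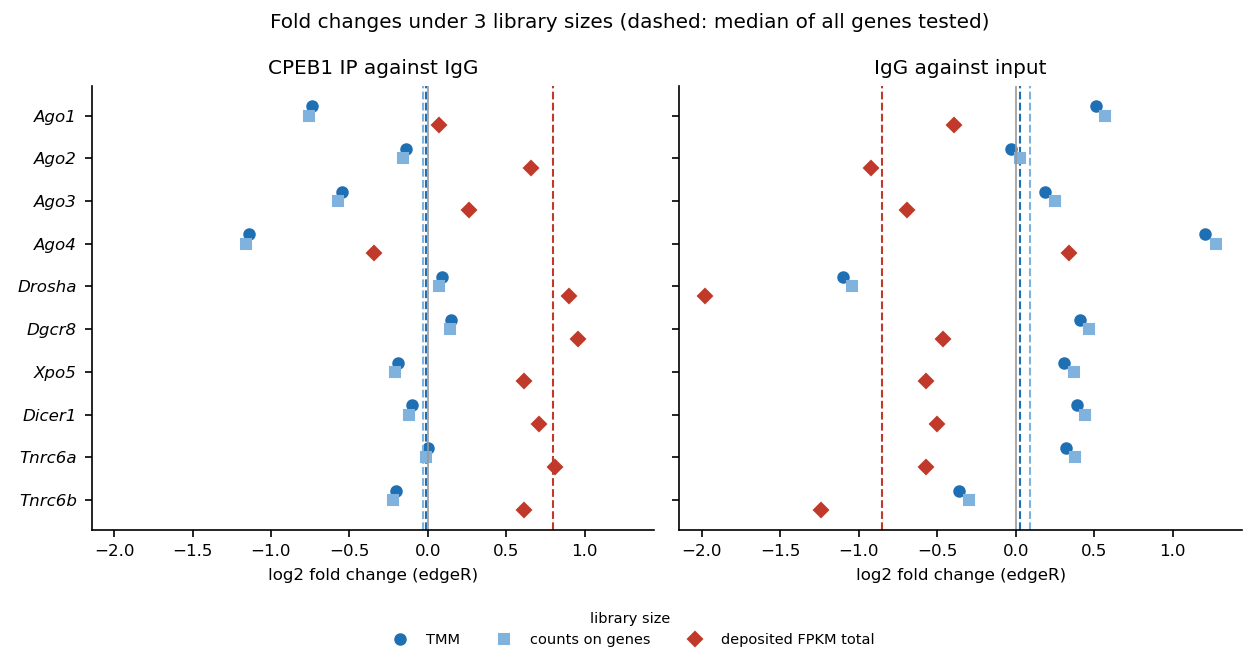
Log2 fold changes of the 10 genes in CPEB1 IP against IgG and in IgG against input under 3 library sizes: TMM (circles), counts on genes (squares) and the total behind the deposited FPKM (diamonds). Dashed lines are the medians of all genes tested, and the genes move together with that median, to 0.80 in the first panel and -0.85 in the second.

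The study called a transcript associated with CPEB1 where the ratio of FPKM in CPEB1 IP to IgG was over 2 in each experiment, together with an adjusted p. For the ratios given here, 1 was added to each FPKM. Of the 10 genes, 0 passed the ratio in both experiments, beside 14.4% of the 12124 genes tested. The highest ratios were 1.70 for Tnrc6a in experiment 1 and 1.67 for Dgcr8 in experiment 2, with 1.33 and 1.43 for these genes in the other experiment. Ago2 had 1.51 and 1.55, Drosha 1.29 and 1.59, Xpo5 1.45 and 1.39, Dicer1 1.32 and 1.43 and Tnrc6b 1.17 and 1.34. Ago1 at 1.04 and 1.01, Ago3 at 0.986 and 1.25 and Ago4 at 0.904 and 0.930 were the lowest. The medians over all genes tested were 1.45 and 1.52. An added 1 draws the ratio of low genes such as Ago4 towards 1.

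The wider pathway was read from 48 further genes, in lists of nuclear processing factors, Dicer partners and precursor modifiers, Argonaute loading partners, and silencing effectors. For CPEB1 IP against IgG, 44 of them were tested, of which 12 were higher, 5 lower and 27 not past the threshold, beside 14.7% of all genes tested higher and 18.7% lower. Against input, 8 were higher and 7 lower of 44 in CPEB1 IP, beside 17.0% and 15.8% of all genes, and 4 higher and 11 lower of 45 in IgG, beside 21.4% and 19.4%. With so few genes in a list, the counts below describe the lists and single out none of them.

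Of the 9 nuclear processing factors, 6 were higher in CPEB1 IP than in IgG and 0 lower (all genes 14.7% and 18.7%), with a median log2 fold change of 0.34 beside -0.01 over all genes. Against input, 2 were higher and 1 lower in CPEB1 IP (all genes 17.0% and 15.8%), and 1 higher and 2 lower in IgG (all genes 21.4% and 19.4%). Srrt, which links the cap-binding complex to microRNA processing, had 260 and 254 CPM in CPEB1 IP and 177 and 138 in IgG (log2 fold change 0.64 ± 0.12, adjusted p = 0.000315 in edgeR). Hnrnpa1, which binds the loop of certain precursors, had 320 and 309 CPM against 199 and 207 (0.56 ± 0.10, adjusted p = 0.000266). Srrt did not pass the threshold against input in CPEB1 IP (0.25, adjusted p = 0.164) and was lower than input in IgG (-0.51, adjusted p = 0.0126), while Hnrnpa1 was higher than input in CPEB1 IP (0.56, adjusted p = 0.0116). Both genes were higher in every CPEB1 IP library than in any IgG library, and their lowest log2 fold change under the alternatives was 0.52. They were named for the largest called changes of their list in this comparison, so that separation is largely set by the choice and adds no support.

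Of 8 tested Dicer partners and precursor modifiers, 1 was higher and 1 lower in CPEB1 IP than in IgG, close to the 14.7% and 18.7% of all genes. Zc3h12a, a ribonuclease that can cut precursors, rose by 0.66 ± 0.23 (adjusted p = 0.0344 in edgeR), with 39.2 and 53.5 CPM against 33.4 and 24.0, but it had 109 and 80.3 CPM in input. Lin28b, which blocks let-7 maturation, was lower (log2 fold change -1.62 ± 0.52, adjusted p = 0.0207), on 14 and 9 reads in CPEB1 IP, 15 and 12 in IgG, with 1 and 0 in input. Lin28b passed the filter on low counts through its IgG libraries and was not tested between CPEB1 IP and input. That filter favours a lower value in CPEB1 IP, so the call is no support for a difference.

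Of 10 tested Argonaute loading partners and turnover factors, 4 were higher and 1 lower (all genes 14.7% and 18.7%). Hsp90aa1, the chaperone used in loading, had 2710 and 2300 CPM in CPEB1 IP against 1520 and 1640 in IgG (0.60 ± 0.10, adjusted p = 0.000156 in edgeR). Its input libraries had 1910 and 2550 CPM, from which IgG differed by -0.50 (adjusted p = 0.00216) and CPEB1 IP by 0.22 (adjusted p = 0.274). Ipo8, an importin that binds Argonaute, was lower, with 22.5 and 25.8 CPM against 45.6 and 34.2 (-0.77 ± 0.24, adjusted p = 0.0163). Of 17 silencing effectors, 1 was higher and 3 lower, the latter close to the 18.7% of all genes. Xrn1, the exonuclease that degrades decapped transcripts, had 35.0 and 26.8 CPM against 63.8 and 41.5 (-0.86 ± 0.23, adjusted p = 0.00616), and the decapping cofactor Dcp1a had 37.5 and 42.3 against 44.8 and 68.5 (-0.56 ± 0.20, adjusted p = 0.0385). Across the alternatives the log2 fold change reached 0.04 for Ipo8, -0.06 for Xrn1 and 0.25 for Dcp1a at the highest, so Ipo8 and Dcp1a kept no fixed direction.

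The genes whose pattern over the 6 libraries was most like the mean of the 10 genes were Hpf1, Bclaf3, Sf3b6, Celf1 and Ppp3cb, with root mean square differences of 0.023, 0.053, 0.056, 0.057 and 0.064 on the log2 scale, out of 10457 candidates with a median of 0.398. The mean of the 10 genes ran only from -0.17 in Input replicate 1 to 0.16 in IgG replicate 2 on the centred log2 scale, so likeness to it mostly means little change. Among the 10 genes, Ago2 and Xpo5 were nearest to that mean at 0.108 each. Drosha at 0.626 and Ago4 at 0.465 were farthest, beyond the median of the candidates, so the mean does not describe each gene.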

How the data were processed

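RIP-seq libraries were prepared from fiSCs with SMART-seq2 and read in pairs. The authors aligned the reads to mm10 (HISAT2) and assigned them to genes (featureCounts). Raw counts and FPKM per gene were deposited by the authors. Reconstructed from the tables, the deposited FPKM equal the count divided by gene length and by a library total larger than the counts on genes. Annotation release, strand setting and treatment of multiply mapped reads are not given in the sources used here.

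Counts were analysed with edgeR 4.0.16 in R 4.3.3: filterByExpr, TMM, and the quasi-likelihood test between 2 groups at a time, tested first on simulated data, with Benjamini-Hochberg adjustment over all genes. The SE is the log2 fold change divided by the square root of F. Alternatives were DESeq2 1.42.0, RLE size factors, other library sizes, no filter on low counts, all 6 libraries in 1 fit, a replicate block, protein-coding genes only, pseudocounts of 0.1 and 5 for the FPKM ratio, and leaving out each library. Python 3.11.15 served for the remaining steps. 3′ UTRs came from GENCODE M21, in which all 10 genes have the same span as in the tables. The named genes were the 10 members, Tnrc6c, and from each wider list the 2 called genes with the largest change between CPEB1 IP and IgG. Members and lists were chosen with earlier results of these data known. Counts of between 16 and 1429 reads limit the precision of each gene. A sequence window of a further gene is not reported here.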

Additional observations from a re-analysis of the deposited data

How the results depend on the processing

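With 2 libraries a group, between 16 and 1429 reads a gene limit what can be called, and calls near the threshold moved with most settings. The cause of each change was not tested, except that leaving out a library or testing fewer or more genes changes the fit by construction. Of the counts recomputed under the alternatives (called genes, and members past the FPKM ratio or with a CPE), 97 stayed within 1.5 times and 53 did not. Of the log2 fold changes of the 10 genes, 280 kept direction and side of the threshold and 34 changed sign. Among those that kept their sign, 37 lost the call and 9 gained one. Values that changed sign were not sorted by call, and some of them gained or lost one as well. For CPEB1 IP against IgG, DESeq2, the FPKM library total, no filter on low counts and all 6 libraries in 1 fit each gave 0 members lower, in place of 2, and the FPKM library total gave 7 higher, in place of 0. Over all genes, the FPKM library total gave 7149 higher and 937 lower, no filter gave 3513 higher, and DESeq2 gave 998 lower. The sign turned with the FPKM library total for Ago1 (0.07), Ago2 (0.66), Ago3 (0.26), Xpo5 (0.61), Dicer1 (0.71) and Tnrc6b (0.61), with DESeq2 for Ago2 (0.14), Xpo5 (0.09), Dicer1 (0.18) and Tnrc6b (0.08), and without the filter for Ago2 (0.25), Xpo5 (0.21), Dicer1 (0.30) and Tnrc6b (0.20). Tnrc6a, at 0.00, turned to -0.01 with total counts as library size and to -0.04 with protein-coding genes only. For CPEB1 IP against input, DESeq2, total counts, the FPKM library total and no filter gave 0 members higher, and DESeq2 and no filter gave 1 lower. Over all genes DESeq2 gave 1227 higher and 1189 lower, and the FPKM library total 1235 higher. For IgG against input, DESeq2, the FPKM library total and no filter gave 0 members higher, with 0, 6 and 2 lower. Over all genes DESeq2 gave 1134 higher and 1594 lower, and the FPKM library total 1108 and 7180. There the sign turned with the FPKM library total for Ago1 (-0.39), Ago3 (-0.69), Dgcr8 (-0.46), Xpo5 (-0.57), Dicer1 (-0.50) and Tnrc6a (-0.57), for Ago2 with total counts and with protein-coding genes only (0.03 each), and for Ago3 without the filter (-0.08).

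With each library left out in turn, members called for CPEB1 IP against IgG were 0 higher and between 0 and 1 lower, and all genes between 1054 and 1783 higher and between 677 and 1750 lower. For CPEB1 IP against input the members ran from 0 to 2 in each direction, and all genes from 957 to 2646 higher and from 1064 to 2347 lower. For IgG against input the members ran from 0 to 1 in each direction, and all genes from 1354 to 2170 higher and from 1709 to 2400 lower. The sign turned in CPEB1 IP against IgG for Drosha without CPEB1 IP replicate 2 (-0.47) and IgG replicate 1 (-0.14; highest value 0.53) and for Tnrc6a without CPEB1 IP replicate 1 (-0.06) and IgG replicate 1 (-0.13). Against input it turned in CPEB1 IP for Ago1 (0.76) and Ago2 (0.03, lowest value -0.17) without Input replicate 2 and for Ago4 without CPEB1 IP replicate 1 (-0.06, highest value 0.47). In IgG it turned for Ago1 without Input replicate 1 (-0.03, highest value 1.37) and for Ago2 without Input replicate 2 (0.05, lowest value -0.10). A group left with 1 library was assumed to vary like the other group.

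The libraries share replicate numbers, and deviations of same-numbered libraries from their group means correlated at -0.0107, -0.0206 and 0.0324 over 14276 genes in the 3 comparisons, so the main test has no replicate block. With a replicate block, 1 member was lower in CPEB1 IP than in input, in place of 2, because Tnrc6b missed the threshold. No other member call changed. The FPKM ratio gave 0 of 10 genes with pseudocounts of 0.1 and 5 and with TMM library sizes.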
